A study of Homo sapiens with 4 samples.

Results

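The 9 genes described here are grouped around the p53 stress pathway. They are the p53 inhibitors MDM2 and MDM4, and GADD45A, GADD45B, FAS, PHLDA3, TP53INP1, ZMAT3 and SESN1, listed as stress-induced p53 targets. Whether p53 regulates each of them in these cells was not measured. The 9 genes were taken from the 60623 genes of the count files by their symbols alone, and each symbol matched 1 gene. BICR10 cells, a human line from a head and neck cancer, had been transduced before RNA sequencing by lentivirus with a control hairpin (shControl, 2 libraries) or with a hairpin against YEATS2, a reader of histone acylation marks (shYEATS2, 2 libraries), and selected with puromycin for 3 days. Both arms thus carried the viral vector and the drug selection. Hairpins were expressed in a single line, neither the labels nor the methods say which YEATS2 hairpin each shYEATS2 library carried, and replicates are called biological in the study's general statement, while the labels do not say that libraries 1 and 2 came from separate cultures. If they did not, the p-values measure only the spread between these libraries, which may be technical.

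p53 is a transcription factor that is held low in unstressed cells. MDM2 is the ubiquitin ligase that marks p53 for degradation, and it is itself a p53 target, which closes a feedback loop. MDM4 is the related protein that binds p53, blocks its activity and pairs with MDM2. When DNA is damaged or the cell is otherwise stressed, this restraint is released and p53 turns on genes for growth arrest, repair, metabolism and death. Several of these genes also have inducers other than p53, and GADD45A and GADD45B are known as responders to amino-acid, inflammatory and osmotic stress.

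MDM2, FAS and SESN1 held a sequence close to the p53 response element in a window around a start site. The element is a pair of half-sites of 10 bases each, and it reads as the same pattern on both strands. The search used the half-site consensus with its central C and G fixed and no gap between half-sites, over RefSeq windows (GRCh38.p14) of 250 bases before to 50 bases after a start. At most 3 mismatches to the 20-base consensus were allowed, a limit set with the published elements of these genes in mind. Of the 9 genes, 6 had windows (14 in all), and GADD45A, PHLDA3 and TP53INP1 had none in the table. An element with at most 3 mismatches lay in a window of 3 of the 6 genes and of 1.37% of the 27305 genes with a window. With at most 2 mismatches it was 2 of 6 against 0.359%. The genes were listed for their place in the p53 pathway and the limit was set with their elements in mind. A higher share was thus built into the choice and is not a test. The 6 genes also had more windows per gene, 14 in all, than the 27305 genes with 35116 windows. The 3 elements are shown because each belongs to a gene whose level is given below, and all bases of the element are in capitals.
MDM2, chr12:68808923-68808942, plus strand, 2 mismatches: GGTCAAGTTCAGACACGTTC
FAS, chr10:88991309-88991328, plus strand, 2 mismatches: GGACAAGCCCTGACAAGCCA
SESN1, chr6:109009018-109009037, minus strand, 3 mismatches: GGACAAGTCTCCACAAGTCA

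The MDM2 element that the search found lay before the internal start site. Its stretch overlapped 0 annotated exons of GENCODE release 44 and sits inside the MDM2 gene. The stretch is printed to place this element (capitals) in its surroundings. A half-site without the fixed central C or G was passed over by the search and stays in lower case. The lower-case letters can therefore still hold a further p53 element.
MDM2, chr12:68808767-68808996, plus strand: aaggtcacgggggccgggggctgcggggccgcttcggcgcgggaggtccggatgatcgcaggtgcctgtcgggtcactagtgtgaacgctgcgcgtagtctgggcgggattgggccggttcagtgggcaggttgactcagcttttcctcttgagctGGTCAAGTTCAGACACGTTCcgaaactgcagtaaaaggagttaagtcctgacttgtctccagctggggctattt
A match is a description of these letters and not evidence of p53 binding, which was not measured here.

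The libraries held between 11334133 and 47297970 counts on genes, and both shYEATS2 libraries were the shallower ones, so that depth and knockdown cannot be told apart by design. YEATS2 itself (ENSG00000163872) fell from 66.1 and 66.7 CPM in the shControl libraries to 29.3 and 29.1 CPM in the shYEATS2 libraries. CPM here are counts scaled to library size after TMM normalization. Of the 11 epithelial markers examined, not all of them particular to squamous epithelium, KRT8, KRT18 and SFN were above 70 CPM in every library. TP63 had at most 3 counts, KRT14 at most 1.235 CPM, KRT17 at most 0.397 CPM and the general epithelial marker CDH1 at most 2.84 CPM. Several defining markers of squamous epithelium were thus near 0. The summed level of markers usual for fibroblasts was high, at 7198 to 7290 CPM in shControl and 2213 to 2350 CPM in shYEATS2. All 7 tested of these 8 markers fell. Most of the sum was collagen: COL1A1, COL1A2 and COL3A1 stood at 2845, 2623 and 1043 CPM in shControl library 1. DCN and LUM made up most of the rest. PDGFRB was at most 17.79 CPM, PDGFRA at most 2.998 CPM and THY1 at most 0.2866 CPM. The epithelial list summed to 582 to 585 CPM in shControl and to 322 to 346 CPM in shYEATS2, most of it from KRT8, KRT18 and SFN. Of its 9 tested genes, 6 were lower and 1 was higher. From shControl to shYEATS2, KRT6A went from 55.0 and 58.2 CPM to 1.38 and 2.21 CPM. KRT5 went from 16.4 and 14.95 CPM to 1.03 and 1.36 CPM, and KRT8 from 268.5 and 263.7 CPM to 123.0 and 114.6 CPM. SFN stood at 126 to 136 CPM throughout, and CDH1 went from 0.353 and 0.318 CPM to 2.84 and 2.12 CPM. The 5 endothelial markers summed to 35.6 and 36.6 CPM in shControl and 18.95 and 20.2 CPM in shYEATS2, with 1 lower and 1 higher of 3 tested, and nearly all of the sum was KDR, at 33.8 and 35.1 CPM against 17.01 and 17.4 CPM. Immune markers stood at no more than 1.79 CPM in sum, with CD3E, CD68 and NKG7 at 0 in every library. The part of these shifts in the results below was not tested, and in bulk RNA fewer cells of a type and less RNA per cell cannot be told apart.

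After YEATS2 knockdown the 9 genes split. GADD45A, GADD45B and MDM4 rose, PHLDA3, TP53INP1, SESN1 and MDM2 fell, and FAS and ZMAT3 did not pass the test. GADD45A changed most, to 4.60 times its control level, and it was the only one of the 9 to change by more than 2-fold in the fit. All 9 had enough counts to be tested. A gene was called at an adjusted p under 0.05 (edgeR's quasi-likelihood test, Benjamini-Hochberg adjustment over the 17058 genes tested). Of the 9 genes, 7 were called, 3 higher and 4 lower, where 46.2% of all tested genes were called, 22.6% higher and 23.6% lower. The shYEATS2 libraries did not overlap the shControl libraries for 7 of the 9, against 71.6% of all tested genes. The median log2 fold change was −0.16 over the 9 genes and −0.01 over all tested genes. With libraries scaled by their totals alone, 2571 genes were lower and 5441 higher over the whole table, in place of 4019 and 3857, the median of all genes moved to 0.13, and 2 of the 9 genes were lower and 4 higher.

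**Figure D1:**
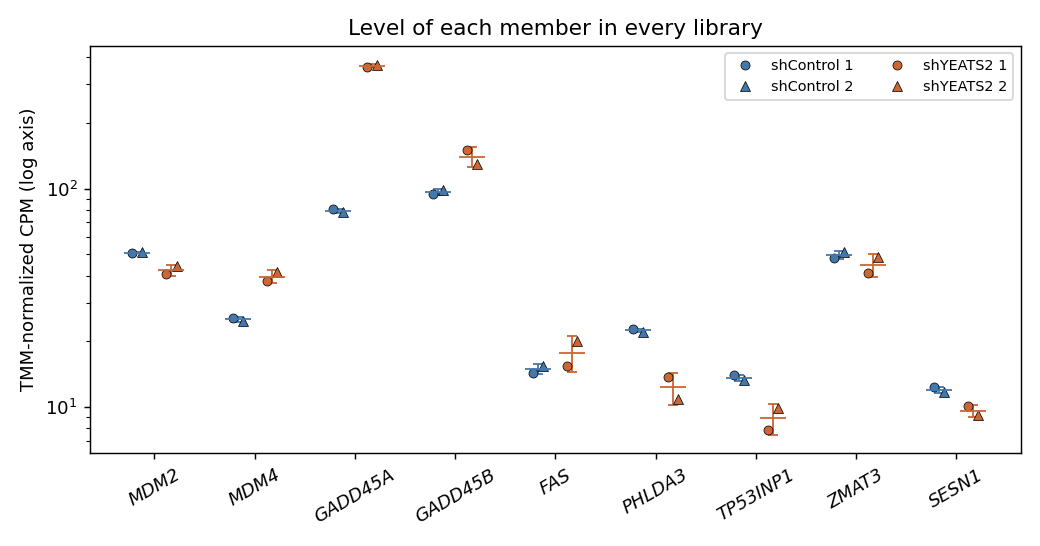
TMM-normalized CPM (log axis) of the 9 genes in the 2 shControl and 2 shYEATS2 libraries, with circles for library 1, triangles for library 2, and a bar with whiskers for the mean ± SD of each group (n = 2). The groups are clearly apart for GADD45A, at 78.0 to 80.2 CPM against 360 to 368 CPM, and overlap for FAS and ZMAT3.

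**Figure D2:**
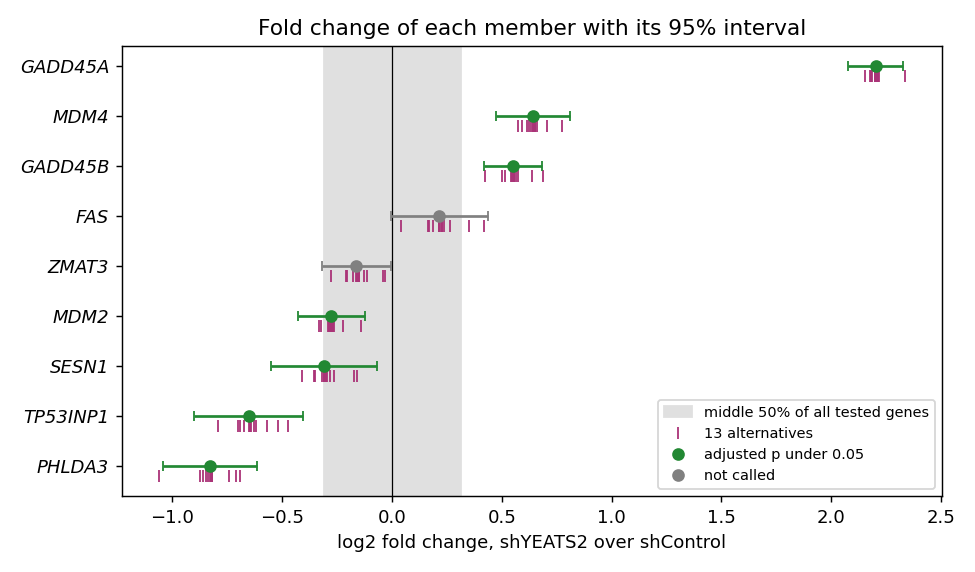
Log2 fold change of each gene with its 95% confidence interval from the edgeR fit (circles and whiskers, green where called), and the values under 13 alternative analyses (short marks below). The grey band holds the middle 50% of all tested genes, from −0.31 to 0.32, and GADD45A, MDM4, GADD45B, TP53INP1 and PHLDA3 have their estimates outside it.

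MDM2 and MDM4 moved in opposite directions. MDM2 (ENSG00000135679, plus strand of chromosome 12, 68808177 to 68845544, GRCh38) stood at 50.7 and 51.1 CPM in shControl and at 40.5 and 44.04 CPM in shYEATS2. Both knockdown libraries were below both controls. It fell to 82.5% of control, or by −0.28 ± 0.08 on the log2 scale (fold change ± SE; adjusted p = 0.002, edgeR). Scaled by library totals alone, the change was −0.14 and no longer passed (adjusted p = 0.111). Counts of this gene cannot separate its upstream from its internal, p53-responsive start site. By annotation, 9.45% of its exonic bases also belong to an antisense noncoding gene and 5.29% to a processed pseudogene on the same strand.

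MDM4 (ENSG00000198625, plus strand of chromosome 1, 204516379 to 204558120) was at 25.6 and 24.8 CPM in shControl and at 37.6 and 41.5 CPM in shYEATS2. Every shYEATS2 value was above every shControl value. It rose by 0.64 ± 0.08 (log2 fold change ± SE) to 1.56 times the control level (adjusted p = 1.91e-09, edgeR). The ratio of MDM4 to MDM2 counts within a library, which no scaling of libraries can change, was 0.504 and 0.485 under the control hairpin and 0.929 and 0.942 under knockdown. MDM4 thus went from about 1 count for every 2 of MDM2 to near parity in raw counts, a 1.89-fold shift of the ratio that was the same in kind in both pairs of libraries. An exact permutation test of such a ratio, with 2 libraries a group, cannot go below a two-sided p of 0.33, and none was run.

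The GADD45 proteins are small acidic proteins that bind PCNA, the CDK1 and cyclin B1 complex and the kinase MAP3K4, and link damage to arrest, repair and the p38 and JNK kinases. GADD45A (ENSG00000116717, plus strand of chromosome 1, 67685201 to 67688334) gave 3638 and 2947 counts under the control hairpin against 9129 and 4337 under knockdown, although the knockdown libraries were the shallower. Its level was 80.2 and 78.0 CPM in shControl and 360 and 368 CPM in shYEATS2. The groups lay far apart and replicates differed little. The log2 fold change was 2.20 ± 0.06 (SE), with a 95% confidence interval from 2.08 to 2.33 (adjusted p = 1.17e-40, edgeR). By size of change it ranked 348 of the 17058 tested genes. Over the 4 pairs of one shYEATS2 and one shControl library, the log2 ratio stayed between 2.17 and 2.24.

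GADD45B (ENSG00000099860, plus strand of chromosome 19, 2476122 to 2478259) stood at 94.1 and 98.2 CPM in shControl and at 150 and 130 CPM in shYEATS2. The groups did not overlap, but the shYEATS2 libraries differed more from each other than the shControl libraries did. It rose 1.47-fold, or by 0.55 ± 0.07 on the log2 scale (SE; adjusted p = 1.43e-10, edgeR). Within a library, GADD45A gave 0.852 and 0.795 counts for each count of GADD45B in shControl and 2.40 and 2.83 in shYEATS2. The order of this pair therefore turned, and it did so per length as well. At 45.0 ± 1.34 CPM per kilobase of exon (SD, n = 2), GADD45B led the 9 genes in shControl, followed by GADD45A at 41.1 ± 0.814. In shYEATS2, GADD45A led with 189 ± 2.81 CPM per kilobase and GADD45B followed with 65.5 ± 6.62.

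**Figure D3:**
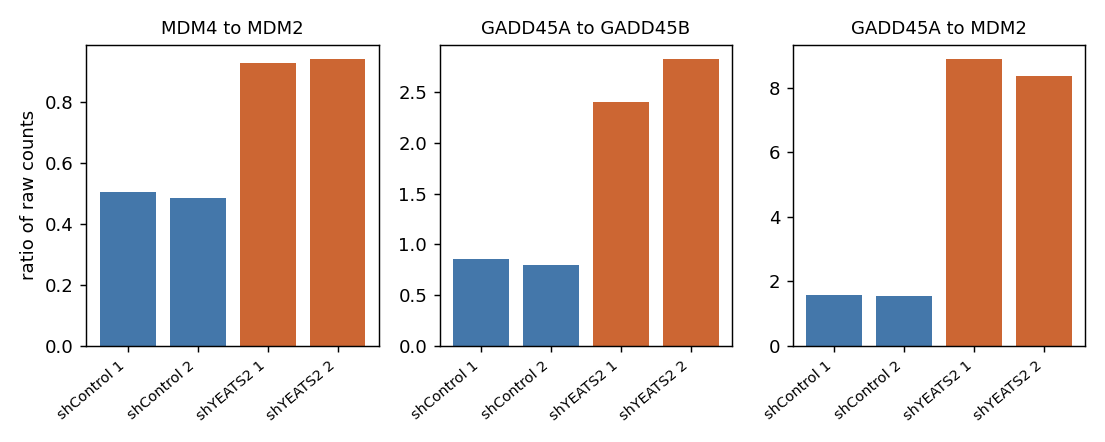
Ratio of raw counts between pairs of genes within each of the 4 libraries (shControl blue, shYEATS2 orange; axes start at 0), a quantity that does not depend on library scaling. All 3 ratios are higher in both shYEATS2 libraries, and the GADD45A to MDM2 ratio goes from 1.58 and 1.53 to 8.90 and 8.36.

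FAS and PHLDA3 act at the cell surface and on survival signalling. FAS (ENSG00000026103, plus strand of chromosome 10, 88953813 to 89029605) encodes the death receptor for FAS ligand. Its level was 14.4 and 15.5 CPM in shControl and 15.4 and 20.1 CPM in shYEATS2. The lower shYEATS2 library fell within the control range, so the groups overlapped. The log2 fold change of 0.22 ± 0.11 (SE) did not pass (95% confidence interval from −0.0045 to 0.44, adjusted p = 0.104, edgeR). It rested on 1 library: the value was 0.42 (adjusted p = 0.00238) without shYEATS2 replicate 1 and 0.04 without shYEATS2 replicate 2. Scaled by library totals alone, FAS was called higher, with 0.35. The gene shares 1.32% of its exonic bases with ACTA2 on the other strand and 6.48% with an antisense noncoding gene, and its exon length of 29.3 kilobases, from 61 transcripts, lowers its level per kilobase where few of these transcripts are used.

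PHLDA3, a membrane-binding protein that competes with AKT for phosphoinositides, had the largest fall of the 9. PHLDA3 (ENSG00000174307, minus strand of chromosome 1, 201464278 to 201469237) was at 22.7 and 22.1 CPM in shControl and at 13.7 and 10.9 CPM in shYEATS2. No value overlapped between the groups. It fell to 56.3% of control, or by −0.83 ± 0.11 on the log2 scale (SE; adjusted p = 9.83e-10, edgeR). A noncoding gene on the same strand shares 18.4% of its exonic bases, and reads there could have been counted as ambiguous.

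TP53INP1, a nuclear protein that assists p53 and takes part in autophagy, fell too. TP53INP1 (ENSG00000164938, minus strand of chromosome 8, 94925972 to 94949378) was at 13.96 and 13.3 CPM in shControl and at 7.90 and 9.93 CPM in shYEATS2. All shYEATS2 values were lower, and the shYEATS2 libraries were again the more variable pair. On the log2 scale the change was −0.65 ± 0.12 (SE; adjusted p = 1.06e-05, edgeR), which left 63.6% of the control level. NDUFAF6 overlaps it on the other strand over 3.99% of its exonic bases.

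ZMAT3 and SESN1 showed the smallest changes beside FAS and MDM2. ZMAT3 (ENSG00000172667, minus strand of chromosome 3, 178960121 to 179072215), a zinc-finger protein that binds RNA and alters splicing and mRNA stability, was at 48.2 and 51.0 CPM in shControl and at 41.0 and 48.6 CPM in shYEATS2. The upper shYEATS2 value lay between the shControl values. The log2 fold change of −0.16 ± 0.08 (SE) did not pass (95% confidence interval from −0.32 to −0.0060, adjusted p = 0.0833, edgeR). It was −0.28 (adjusted p = 0.00047) without shYEATS2 replicate 2 and −0.04 without shYEATS2 replicate 1. No RefSeq window of ZMAT3 held an element of the kind searched.

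SESN1 (ENSG00000080546, minus strand of chromosome 6, 108984309 to 109094846) encodes sestrin 1, which restrains mTORC1 through the GATOR complexes. It was at 12.3 and 11.8 CPM in shControl and at 10.1 and 9.16 CPM in shYEATS2. The groups did not overlap, and the distance between them was small. The log2 fold change of −0.31 ± 0.12 (SE) passed the test (adjusted p = 0.0314, edgeR). This call was the least stable of the 7: the adjusted p was 0.172 with DESeq2, 0.447 after thinning every library to the depth of the smallest, and 0.241 with library totals alone. It was also lost without shControl replicate 1 (0.192), without shControl replicate 2 (0.081) and without shYEATS2 replicate 2 (0.0869).

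Among close relatives of these genes, members of the same family moved in different directions. SESN2, the stress-induced sestrin, was at 15.0 and 13.7 CPM in shControl and at 70.9 and 69.0 CPM in shYEATS2, or 2.28 ± 0.08 on the log2 scale (SE), while its paralog SESN1 fell by 0.31. SESN3 rose by a log2 fold change of 0.76 from 3.68 ± 0.150 CPM (SD, n = 2). In the PHLDA family, PHLDA1 rose from 50.7 ± 0.937 to 178 ± 1.15 CPM (SD, n = 2 each; log2 fold change 1.81), PHLDA2 had 0.23, a call that was lost with DESeq2 (adjusted p = 0.122), with no filter on low counts (0.168) and without either shControl library or shYEATS2 replicate 1, and PHLDA3 fell by 0.83. GADD45G, the third GADD45 gene, fell by 0.39 (SE 0.12), a call lost with DESeq2 (adjusted p = 0.0632), with library totals alone (0.0692), with thinned counts (0.178) and without shControl replicate 1 (0.0729). TP53INP2 fell by 0.30, and not past the threshold with library totals alone (adjusted p = 0.063). All 6 relatives tested were called, 4 higher and 2 lower, where 46.2% of all tested genes were called, 22.6% higher and 23.6% lower.

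The other p53 targets moved in both directions. Of 46 listed, 40 were tested, of which 16 were higher and 9 lower. Calls made up 62.5% of those tested, against 46.2% of all tested genes, of which 22.6% were higher and 23.6% lower. The median log2 fold change of the list was 0.15. It was 0.081 without shControl replicate 1, 0.057 with no filter on low counts and 0.28 with library totals alone. This list and those that follow were written with earlier results of these libraries known. After SESN2, the largest called changes among genes averaging 10 CPM or more were those of TP53I3, an oxidoreductase that rose from 9.38 ± 0.239 to 25.9 ± 0.0769 CPM (SD, n = 2 each), and of SAT1, which acetylates spermidine and spermine and fell from 158 ± 3.62 to 83.0 ± 0.905 CPM. The following were chosen after their values were seen. CDKN1A, the p21 inhibitor of cyclin-dependent kinases and the classic p53 target for arrest, was at 63.3 and 65.2 CPM in shControl and at 70.5 and 67.3 CPM in shYEATS2, and its log2 fold change of 0.11 did not pass (adjusted p = 0.216, edgeR's quasi-likelihood test). GDF15, a secreted stress cytokine, stood at 1.43 ± 0.190 CPM in shControl and at 17.9 ± 1.14 CPM in shYEATS2 (SD, n = 2), and its log2 fold change was 3.64. The death genes BBC3 and PMAIP1 rose, with log2 fold changes of 0.83 and 0.75, and BAX, with −0.11, did not pass. The repair gene XPC fell by 0.34 and DDB2 rose by 0.40. Of the 38 listed targets that had a RefSeq window, 9 held a p53 element with at most 3 mismatches (23.7%, against 1.37% of all genes). These genes were listed as known p53 targets, so a higher share was built into the choice and is not a test.

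**Figure D4:**
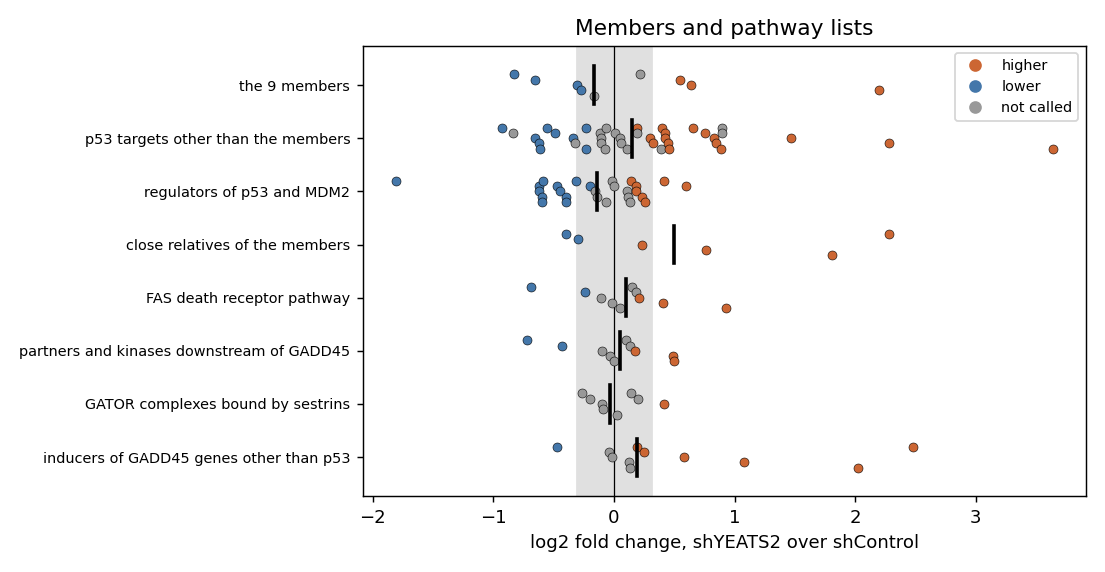
Log2 fold change of the 9 genes and of the tested genes of 7 lists from the same pathways (orange called higher, blue called lower, grey not called; the black bar is the median and the grey band the middle 50% of all tested genes). Points of the p53 targets lie on both sides of 0, and the inducers of GADD45 genes reach 2.48.

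Regulators of p53 and MDM2 moved in both directions. Of 29 listed, 27 were tested, of which 12 were lower and 7 higher. Calls made up 70.4% of those tested, against 46.2% of all tested genes, of which 23.6% were lower and 22.6% higher. The median log2 fold change of the regulators was −0.14. With library totals alone, 10 were lower and 10 higher and the median was −0.0096. The median was −0.26 without shYEATS2 replicate 1 and −0.092 without shYEATS2 replicate 2. The higher count fell to 4 with DESeq2, to 3 without shControl replicate 1, to 2 without shControl replicate 2 and to 4 without shYEATS2 replicate 1. TP53BP1, a chromatin adaptor of double-strand break repair, fell by 0.62 on the log2 scale, the replication-stress kinase ATR by 0.62 and the p53 kinase HIPK2 by 0.60. These were the largest called changes among regulators averaging 10 CPM or more. Below that level, the p53 family gene TP73 went from 8.82 and 8.71 CPM in shControl to 2.01 and 3.39 CPM in shYEATS2 (log2 fold change −1.81). TP73 had 51 and 40 counts in the shYEATS2 libraries and was chosen after its values were seen. CDKN2A, whose ARF product binds MDM2, was at 0 counts in every library. The ribosomal proteins RPL5, RPL11 and RPL23, which can bind MDM2 and hold it off p53, fell by 0.40, 0.59 and 0.59 and were chosen after their values were seen. Of the 7 higher regulators, CHEK2 rose by a log2 fold change of 0.60 and USP10 by 0.41, also chosen after their values were seen.

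Among the listed inducers of GADD45 genes other than p53, ATF3, DDIT3 and ATF4 rose by more than 2-fold. Of 11 tested, 6 were higher and 1 was lower, with a median log2 fold change of 0.20 (0.33 with library totals alone). Calls made up 63.6% of these, against 46.2% of all tested genes, of which 22.6% were higher and 23.6% lower. Whether any of the listed inducers acted on GADD45A or GADD45B in these cells was not tested. ATF4, the transcription factor of the amino-acid response, went from 187 ± 2.15 to 394 ± 17.5 CPM (SD, n = 2 each). Its targets and partners DDIT3, which encodes CHOP, and ATF3 rose by log2 fold changes of 2.03 and 2.48. EGR1 and RELA did not pass, with −0.02 and −0.04. The lower gene, TGFB1, fell by 0.47, and without shYEATS2 replicate 1 the lower count was 3.

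The next list held binding partners of GADD45 proteins as well as kinases downstream of them, and is called downstream of GADD45 below for short. Of its 10 genes, 3 were higher and 2 lower, a share of calls near the 46.2% of all tested genes. PCNA, the replication clamp that GADD45 proteins bind, fell from 195 ± 1.82 to 118 ± 2.22 CPM (SD, n = 2 each; log2 fold change −0.72). CCNB1, which encodes cyclin B1, rose by a log2 fold change of 0.50 and the p38 activator MAP2K3 by 0.49, while CDK1 had 0.00 and MAP3K4 −0.10, neither past the threshold. The lower count was 1 without shControl replicate 1 and without shControl replicate 2. In the FAS pathway, 3 of the 10 tested genes were higher and 2 lower, again near the share over all tested genes. FASLG, the ligand, was at 0 counts in every library. CFLAR, the decoy that holds back caspase 8, rose by a log2 fold change of 0.40, and the adaptor FADD fell by 0.24, a call lost with DESeq2 (adjusted p = 0.106), with library totals alone (0.336), with thinned counts (0.194) and without either shControl library. Of the 8 GATOR genes that sestrins act on, WDR24 was called, with a log2 fold change of 0.42 that was 0.15 (adjusted p = 0.341) without shYEATS2 replicate 1, and the other 7 were not.

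Across the 4 libraries, the genes nearest to GADD45A in pattern were SESN2, MAFF and ADD2, at distances of 0.11, 0.12 and 0.15. The distance is Euclidean, on log2 CPM centred on each gene's mean, over the 9364 other genes that averaged 10 CPM or more. SESN2, MAFF and ADD2 had log2 fold changes of 2.28, 2.23 and 2.32, beside 2.20 for GADD45A. With close replicates this distance mostly follows the difference in fold change, so like fold changes were built into the choice. Among the genes nearest to MDM2 were DSTN and TBC1D14, at distances of 0.0048 and 0.015 and with log2 fold changes of −0.27 and −0.26. With 4 libraries in 2 conditions, many genes lie near a change of this small size.

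Per kilobase of exon, the order of the 9 genes in shControl was GADD45B, GADD45A, PHLDA3 (6.91 ± 0.127), MDM2 (6.13 ± 0.0313), ZMAT3 (4.39 ± 0.178), TP53INP1 (2.41 ± 0.0840), MDM4 (2.29 ± 0.0516), SESN1 (1.65 ± 0.0537) and FAS (0.509 ± 0.0261), in CPM per kilobase (SD, n = 2). TP53INP1 and MDM4 lay within 2 SD of each other. In shYEATS2 the order was GADD45A, GADD45B, MDM2 (5.09 ± 0.301), ZMAT3 (3.97 ± 0.476), PHLDA3 (3.79 ± 0.627), MDM4 (3.59 ± 0.249), TP53INP1 (1.58 ± 0.255), SESN1 (1.32 ± 0.0877) and FAS (0.606 ± 0.114). ZMAT3 and PHLDA3, and PHLDA3 and MDM4, lay within 1 SD of each other, and TP53INP1 and SESN1 lay within 2 SD of each other. PHLDA3 moved from the third place to the fifth, and MDM4 rose above TP53INP1.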

How the data were processed

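RNA was extracted from shControl and shYEATS2 BICR10 cells with TRIzol and made into stranded mRNA libraries, which were sequenced as read pairs (2 libraries per condition). Reads were mapped by the authors with STAR (GRCh38), and the deposited values are HTSeq counts per Ensembl gene without normalization. The annotation release and strand setting are not given in the sources used here. The tally rows that name no gene (15.3% to 16.5% of all tallies and counts) were left out. Counts were filtered with filterByExpr, scaled with TMM and tested across all genes with edgeR 4.0.16 (glmQLFit with robust = TRUE) in R 4.3.3. Standard errors are the log2 fold change divided by the square root of the F statistic. DESeq2 1.42.0 and limma-voom (limma 3.58.1) were alternatives. Positions, overlaps and exon lengths came from GENCODE release 44, which held 60295 of the 60623 identifiers. Libraries of a condition differed by more than counting noise (chi-square per degree of freedom of 5.95 and 5.39 over genes with at least 50 counts).

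The 9 genes and all lists were chosen with earlier results of these data known. Besides these 9 and YEATS2, the text names the 3 largest called changes of each list at a mean of at least 10 CPM with groups that did not overlap, every close relative, and the 3 genes nearest in pattern to GADD45A and to MDM2. Exceptions are marked as chosen after their values were seen, except the list members EGR1, RELA, TGFB1, CDK1, MAP3K4, CDKN2A and FASLG, which were also chosen so. The gene that encodes p53 and some genes that this rule names are not reported here.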

Additional observations from a re-analysis of the deposited data

How the results depend on the processing

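The signs of all 9 genes were the same in all 13 alternatives, and GADD45A, GADD45B, MDM4, PHLDA3 and TP53INP1 were called in each. With library totals alone, MDM2 (−0.14) and SESN1 (−0.17) were no longer called, FAS was (0.35), 2 of the 9 were lower, 2571 genes were lower over the whole table (32.1% of calls against 51.0%), and the lists had 0 lower relatives, 1 lower and 5 higher in the FAS pathway, 1 lower and 5 higher downstream of GADD45, and 3 higher GATOR genes. With no filter, ZMAT3 was called (−0.21), 3 regulators were higher and 1 GATOR gene was lower. With DESeq2, SESN1 was not called (−0.31), 4 regulators were higher, and 1 relative, 1 FAS pathway gene and 1 gene downstream of GADD45 were lower. With thinned counts, SESN1 was not called (−0.16), and these 3 lists and the GATOR list had 1 lower gene each. With upper quartiles, 1 gene downstream of GADD45 was lower. Differences between libraries 1 and 2, taken within each condition, correlated at −0.02 over genes. No shared shift was seen, but this cannot settle whether same-numbered libraries were prepared together. With a replicate block, 4142 genes were lower and 3870 higher. The block moved 1 count by more than 1.5 times: 1 GATOR gene was lower in place of 0.

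With each library left out in turn, where a lone library is assumed to vary like the other condition, log2 fold changes ranged from 0.043 to 0.42 for FAS, −0.28 to −0.041 for ZMAT3 and −0.41 to −0.26 for SESN1. Called genes ranged from 2 to 7 for higher regulators, 1 to 2 for lower relatives, 1 to 3 for the lower FAS pathway, 1 to 2 for lower genes downstream of GADD45, 0 to 2 for lower and 0 to 2 for higher GATOR genes, and 1 to 3 for lower inducers. The low depth of shYEATS2 replicate 2 (11334133 counts) limits SESN1 and TP53INP1, with 108 and 117 counts there. No group had enough libraries for an outlier test.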
